A study of Rattus norvegicus with 17 samples.

Results

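Within a set of 17 skin explants from hairless rats, the 5 whose arrays carried the most skeletal muscle RNA were set against the 5 that carried the least. Arrays were ranked by a muscle score, which is the mean over Myh1, Tnnc2, Atp2a1, Myl1 and Myl11 of the log2 signal relative to the 75th percentile of its array, each gene centred on its mean over the 17 arrays. All explants came from male CD hairless rats that were 2 to 3 months old at the start and were housed in pairs. The exposed animals received 94 GHz millimetre waves for 3 h a day on 3 days a week over 5.5 months, and the sham animals were sham exposed on that schedule. There were 9 exposed and 8 sham arrays, each a 1-colour Agilent array of Cy3-labelled RNA, and the ends of the score took 10 of the 17 without regard to exposure. The labels name 6 exposed and 8 sham animals, fewer than the exposed arrays, and give no animal for any array. More than 1 exposed array may therefore come from an animal, and the p-values below measure only the spread between arrays, which may be technical.

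Rodent skin rests on the panniculus carnosus, a thin sheet of striated muscle beneath the dermis and its fat, so a full-depth skin explant can include muscle fibres. A muscle fibre is filled with sarcomeres, in which thick filaments of myosin pull on thin filaments of actin. Contraction begins when the calcium channel of the transverse tubule opens the calcium store of the sarcoplasmic reticulum and calcium binds troponin on the thin filament, and it ends when the calcium pump returns calcium to the store. Fast and slow fibres build these parts from different genes. Fast fibres lean on glycolysis and the creatine kinase system, while slow fibres hold more mitochondria and myoglobin.

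The 5 score genes define the ends, and their values are a description. Myh1, the heavy chain of a fast myosin, ranged from -8.18 to -7.61 on the 5 lowest arrays, from -4.14 to 1.46 on the 7 arrays between and from 1.92 to 5.26 on the 5 highest, in log2 units relative to the 75th percentile of each array, the scale of every level below. Tnnc2, the fast troponin C that binds calcium, ranged from -4.27 to -3.59 at the low end and from 2.71 to 6.08 at the high end. Atp2a1, the fast calcium pump, ranged from -3.55 to -2.94 and from 2.56 to 6.00 on the same arrays. Myl1 and Myl11, light chains of fast myosin, spanned -7.81 to -6.07 and -3.91 to -3.69 at the low end and -0.67 to 3.11 and 2.41 to 5.81 at the high end. The score is built from these 5 genes, so their separation of the ends largely follows from the choice of arrays. Within the low end their orders differed, with Tnnc2 lowest on sham replicate 6 and Myl1 lowest on sham replicate 4. Myh1 and Myl1 were not well above background on any low array, whereas Tnnc2, Atp2a1 and Myl11 were above it on all 5. Whether that remaining signal came from muscle RNA was not tested.

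The score was -4.28, -4.21, -4.14, -4.01 and -3.86 on the low arrays, which were exposed replicate 9 and sham replicates 4, 6, 1 and 8. It was 2.92, 3.06, 5.63, 6.24 and 6.32 on the high arrays, which were sham replicate 5, exposed replicate 6, sham replicate 3 and exposed replicates 4 and 8. The low arrays lay close together, with a mean of -4.10 ± 0.168 (SD, n = 5), while the high end had a mean of 4.84 ± 1.70 (SD, n = 5) and fell into a pair near 3 and a trio near 6. The 7 arrays between were at -2.74, -1.88, -1.62, -1.34, 0.07, 1.47 and 2.36. The steps across the edges of the ends, from 2.36 to 2.92 and from -2.74 to -3.86, were smaller than the steps from -1.34 to 0.07 and from 0.07 to 1.47 within the middle. The mean score was 0.99 ± 3.73 (SD, n = 9) in exposed arrays and -1.12 ± 3.89 (SD, n = 8) in sham arrays, a difference smaller than the spread within either group.

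**Figure D1:**
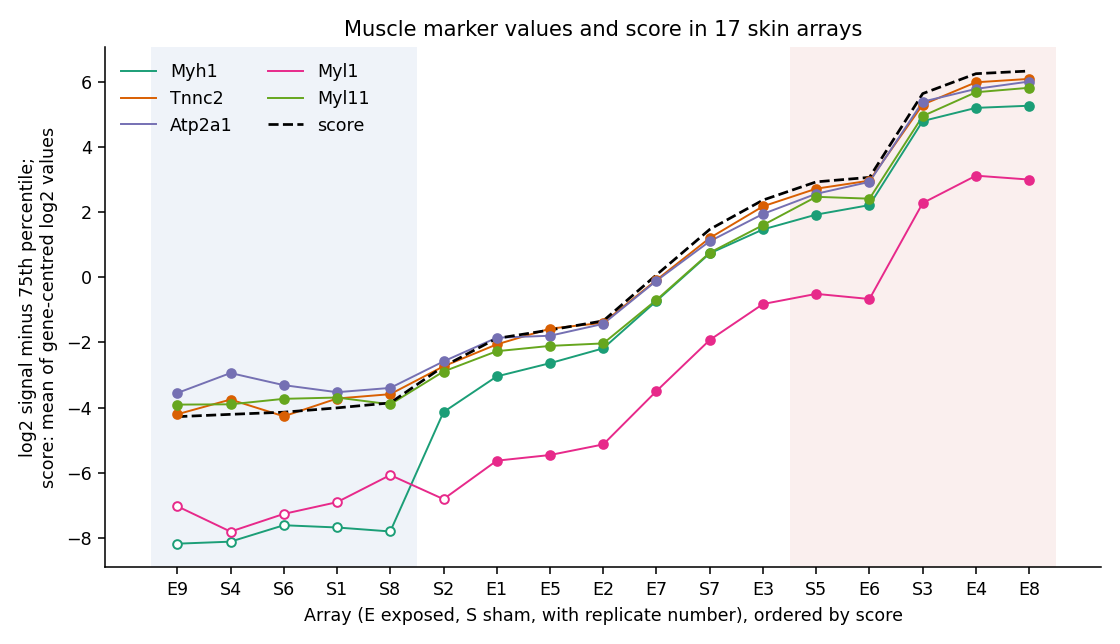
Level of the 5 score genes and the score itself on each of the 17 arrays, ordered by score, with E for exposed and S for sham and the replicate number. The shaded arrays are the ends, and open points mark values not well above background. The 5 low arrays lie flat near -4.10 on the score and the high end climbs from 2.92 to 6.32.

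Overall brightness overlapped between the ends. The 75th percentile signal was 788 to 1266 at the low end, 837 to 1223 between and 891 to 1214 at the high end, and 66.7% to 69.3%, 66.9% to 70.8% and 67.2% to 69.6% of probes were well above background. The ends were unbalanced in exposure and slide, since the low end held 1 exposed and 4 sham arrays and the high end 3 and 2. A slide here is a set of arrays that share a barcode and a scan time in the file headers. Only slide 2 held arrays of both ends, 3 high and 1 low, so a fit with slide as a block gives the same value as slide 2 alone. Keratin 5 (Krt5), the basal epidermal keratin, was well above background on all 10 arrays, at 5.42 to 5.76 in the high end and 5.66 to 5.89 in the low end. In bulk tissue fewer cells of a type and less RNA per cell cannot be told apart.

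Of 21253 probes measured beside the score genes, 129 (0.607%) were higher in the high end, by the rule that the groups did not overlap and the means differed at least 2-fold, and 1 (0.00471%) was lower. These counts carry no test, because the arrays were chosen by measured values. Without the 2-fold limit 272 probes (1.28%) lay wholly higher and 158 (0.743%) wholly lower, and 41.0% of all probes had a difference above 0, with a median of -0.030 log2 units. The higher set was therefore small and large in size. Of the 129 probes, 62 differed more than 16-fold, 41 differed 4- to 16-fold and 26 less than 4-fold. They named 94 genes, of which 54 stood in a list of skeletal muscle genes and 38 in no list. The lists were chosen with earlier results of these data known, so these 2 counts are a description only. A probe passed the brightness filter if it was well above background on at least 5 of the 17 arrays, so genes seen only at the high end entered the set because they were high there. On the low arrays 41 of the 129 probes were nowhere above background, and for these the fold change is a lower bound against the dimmest measurable signal. Such a bound holds only for the probe and the processing used.

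The 7 arrays between the ends took no part in that comparison and allowed a test. A line of each probe against the score was fitted over them with limma, and 29 probes (0.136%) rose at a Benjamini-Hochberg adjusted p under 0.05 while none (0.0%) fell. The adjustment took in the 5 score genes, whose small p-values ease it for other probes. At an unadjusted p under 0.05, 1141 probes rose (5.37%) and 1079 fell (5.08%). All 29 rising probes were among the 129 higher at the high end, or 22.5% of the higher probes, and 116 of the 129 had a slope above 0 against 44.7% of all probes. The 29 belonged to 22 named genes and 7 probes without a symbol. The count leaned on the arrays at the upper edge of the middle, with 10 rising probes without exposed replicate 3 and 13 without sham replicate 7. The 22 genes were Acta1, Actn3, Cacna1s, Casq1, Ckm, Cox6a2, Cox8b, Eno3, Fitm1, H19, Mb, Myh8, Mylk2, Myoz1, Nrap, Pgam2, Rpl3l, Smtnl1, Tceal7, Tnni2, Tnnt3 and Trdn.

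**Figure D2:**
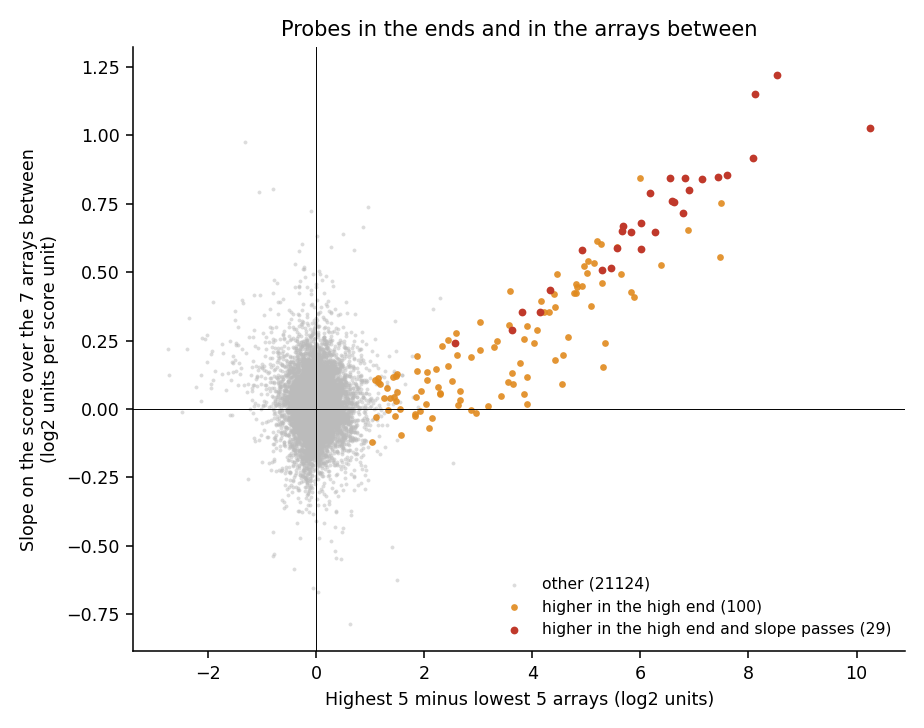
Each point is a probe. The horizontal axis is the high end minus the low end in log2 units and the vertical axis the slope on the score over the 7 arrays between, in log2 units per score unit. Grey probes were not higher at the high end, the 100 orange ones were, and the 29 red ones also had a rising slope with adjusted p under 0.05.

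In the list named thick filament 6 of 6 measured genes were higher at the high end. Their median difference was 4.48 log2 units against -0.030 for all probes. The 6 include Myoz1, of the Z-disc, and Mylk2, a kinase. Of 14 listed genes 2 were too dim to measure, including Myh4, and 6 had no named probe, including Ttn. Myh2, the heavy chain of another fast fibre type, was at -2.22, -1.97, 0.38, 1.92 and 2.19 on the high arrays in order of score and between -8.09 and -6.76 on the low arrays. It was at least 131-fold higher by this probe, since no low array showed it above background. A second kept Myh2 probe differed by 5.09 log2 units. Myoz1, a fast-fibre Z-disc protein that binds calcineurin, ranged from -0.62 to 2.67 against -5.81 to -5.04 and differed by 6.79 log2 units. It was above background on 2 of 5 low arrays. Its slope over the 7 arrays between was 0.72 log2 units per score unit (limma adjusted p = 0.0075), and Mylk2, the skeletal myosin light chain kinase, also rose at 0.36 (adjusted p = 0.046). Myom1 and Myom2, which crosslink thick filaments at the M-band, and Mybpc1, a myosin-binding protein, differed by 2.86, 4.82 and 3.78 log2 units.

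Myh8, annotated as the perinatal myosin heavy chain, showed the largest difference outside the score genes. It was at 2.81, 2.94, 5.51, 6.14 and 6.37 on the high arrays and at -6.18, -5.45, -5.43, -5.89 and -4.54 on the low arrays, where 3 of 5 were above background. The ends lay far apart, and the 7 arrays between filled the space from -2.73 to 2.35 in exact order of the score. The difference was 10.25 log2 units, or 1218-fold between means of 4.75 ± 1.74 and -5.50 ± 0.622 (SD, n = 5 each). The slope was 1.03 ± 0.035 (SE, n = 7 arrays) log2 units per score unit, with a limma adjusted p of 4.75e-05. Myosin heavy chain genes are close in sequence, the probe sequences were not used here, and cross-hybridisation between Myh8, Myh1, Myh2 and Myh6 cannot be told apart from their own signal.

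The other developmental and regeneration genes did not share this pattern, since 1 of 9 measured genes, Myh8 itself, was higher at the high end. Myh3, the embryonic myosin heavy chain, was at -4.71, -5.81, -3.20, -2.03 and -2.15 on the high arrays against -6.38 to -4.98 on the low arrays. Its groups overlapped through exposed replicate 6, and its mean difference was 2.01 log2 units with a slope of 0.019 (adjusted p = 0.950). Myog, a transcription factor of differentiating muscle cells, differed by 0.61 and also overlapped. Myod1, Pax7 and Myf6 were among 5 genes too dim to measure.

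Thin filament and troponin genes were higher in 6 of 11 measured cases, with a median of 2.14 log2 units. Acta1, the actin of skeletal muscle, was at 0.94, 1.08, 4.13, 4.71 and 4.47 on the high arrays and at -4.46 to -3.41 on the low arrays. The 3 arrays of highest score stood well above the other 2, and neither group came near the other. Its difference was 6.90 log2 units, or 119-fold, and its slope was 0.80 ± 0.048 (SE, limma adjusted p = 9.57e-04). Tnnt3 and Tnni2, the fast troponins that tie troponin to tropomyosin and block the filament at rest, differed by 7.14 and 6.59 log2 units, and both rose over the arrays between at 0.84 and 0.76. The rest of the list stayed close to the median of all probes in several cases. Tpm1 and Tpm2, which encode tropomyosins, differed by 0.11 and 0.12 and Actc1, cardiac actin, by -0.041, and none of the 3 was counted as higher.

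Z-disc and costamere genes anchor the filaments, and 7 of 13 measured were higher, with a median of 4.17. Nrap, an anchoring protein of the tendon junction and of growing myofibrils, was at -0.80, -0.67, 1.65, 2.15 and 2.88 against -7.89 to -6.64. It was at least 225-fold higher, and its slope was 0.92 ± 0.048 (SE, adjusted p = 4.37e-04). Actn3, the fast-fibre alpha-actinin, was measurable on every array and differed by 5.83 log2 units, with a slope of 0.65 (adjusted p = 0.016). Myot and Csrp3, a Z-disc crosslinker and a LIM protein of striated muscle, were at least 56.4-fold and 40.4-fold higher. With normexp background correction Nrap, Myot and Csrp3 differed by 4.80, 2.88 and 2.57 log2 units, which is below these bounds. Des, which encodes the desmin that smooth muscle shares, differed by 0.63 and was not counted.

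The calcium machinery was higher in 9 of 15 measured genes, with a median of 2.21. Trdn, the triadin that holds calsequestrin to the release channel, was at -1.70, -1.47, 1.32, 1.59 and 2.23 against -8.00 to -7.47, and was at least 186-fold higher. It was above background on 3 of the 7 arrays between, and its slope there was 1.15 ± 0.106 (SE, adjusted p = 0.011). A second kept Trdn probe differed by 4.82 log2 units, and with normexp background correction the first differed by 4.39. Cacna1s, the voltage sensor of the transverse tubule, differed by 6.01, with 1 of 5 low arrays above background, and rose at 0.68 (adjusted p = 0.015). Casq1, the fast calsequestrin that buffers stored calcium, differed by 5.46 and rose at 0.52 (adjusted p = 0.032). Atp2a2, the calcium pump of slow fibres and of most other tissues, differed by -0.042, with low arrays at 4.10 ± 0.026 and high arrays at 4.05 ± 0.117 (SD, n = 5 each). Sln was too dim to measure, and Ryr1 and Mrln had no named probe.

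In the list of glycolysis, glycogen and creatine genes 7 of 20 measured were higher, namely Ckm, Ckmt2, Pygm, Pfkm, Eno3, Pgam2 and Ampd1. Ckm, the muscle creatine kinase, was at 1.58, 1.94, 4.14, 4.69 and 4.86 against -3.51 to -2.82, a difference of 6.62 log2 units or 98.6-fold, and rose at 0.76 ± 0.065 (SE, adjusted p = 0.0075). Pgam2, the muscle phosphoglycerate mutase, was at -0.48, -0.13, 2.03, 2.82 and 2.99 against -6.54 to -5.83, with 1 low array above background, and rose at 0.86 (adjusted p = 7.61e-04). Both genes put the same 3 arrays on top and left no overlap. The other 13 genes of the list, such as Ldha at 0.081, and Hk2 and Slc2a4, the hexokinase and glucose transporter prominent in muscle, at -0.019 and 0.92, ran from -0.019 to 0.92.

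Of the respiratory chain genes 2 of 21 measured were higher. Cox6a2, the heart and muscle form of a cytochrome oxidase subunit, was at 0.40, 0.63, 2.83, 3.61 and 3.95 against -5.38 to -4.62, a difference of 7.43 log2 units, and rose at 0.85 ± 0.039 (SE, adjusted p = 1.96e-04). Cox8b, another muscle-form subunit of that oxidase, differed by 6.01, with 3 of 5 low arrays above background, and rose at 0.59 (adjusted p = 5.19e-05). The other 19 of 21 measured genes, which encode subunits used in all tissues, ran from -0.039 to 0.14 and none was counted. In the list of fatty acid oxidation and citrate cycle genes 2 of 19 were higher. These were Mb, the oxygen-binding myoglobin, by 5.29 log2 units with a rising slope of 0.51 (adjusted p = 0.0019), and Fabp3, a muscle and heart fatty acid carrier, by 1.33 with a slope of -0.0031. Cpt1b, the muscle form of carnitine palmitoyltransferase, differed by 0.75 and was not counted.

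Among muscle regulators and stress genes 5 of 20 measured were higher, with a median of 0.59. Trim54, a ubiquitin ligase of the sarcomere, differed by 4.42 log2 units with 1 of 5 low arrays above background, and by 1.95 with normexp. Art1, a muscle ADP-ribosyltransferase, differed by 3.91 with 3 of 5 low arrays above background. Fhl1, a LIM protein, and the small heat shock proteins Hspb3 and Hspb6 differed by 2.29, 2.63 and 2.05. None of the 20 passed the slope test, which 0.136% of all probes passed. Of genes that mark the nerve contact, 0 of 8 measured were counted as higher, against 0.607% of all probes, with a median of -0.067. In the mean 3 of the 8 were higher and 5 lower. The largest difference was 0.69 for Chrnb1, an acetylcholine receptor subunit, whose ends overlapped. Among higher genes that stood in no muscle list, H19, an imprinted non-coding RNA, was at -0.58, -0.50, 1.24, 2.49 and 2.70 against -6.19 to -4.71 and rose at 0.79 (adjusted p = 0.0070). Rpl3l, a ribosomal protein of striated muscle, was at least 41.5-fold higher, and Tceal7 at least 62.1-fold. Their slopes, 0.67 (adjusted p = 0.0054) and 0.84 (adjusted p = 0.037), rest on few measured values, since 3 and 2 of the 7 arrays between were above background.

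Promoters are shown for 4 of these genes, whose levels moved together across the arrays. They were chosen among such genes after their motif matches were seen, and all 4 hold CAGCTG. The sequences are from RefSeq on GRCr8, run from 250 bases before to 50 after the gene start, 5' to 3' on the gene's strand, and capitals mark matches to the motifs searched.
Ckm, chr1:88189211-88189510, plus strand: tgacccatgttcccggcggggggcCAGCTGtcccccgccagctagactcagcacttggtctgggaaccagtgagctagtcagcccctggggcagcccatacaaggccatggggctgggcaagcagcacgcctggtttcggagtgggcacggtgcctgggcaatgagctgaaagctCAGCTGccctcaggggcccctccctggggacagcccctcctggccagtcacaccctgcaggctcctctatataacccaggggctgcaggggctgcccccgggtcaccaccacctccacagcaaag
Acta1, chr19:68784145-68784444, minus strand: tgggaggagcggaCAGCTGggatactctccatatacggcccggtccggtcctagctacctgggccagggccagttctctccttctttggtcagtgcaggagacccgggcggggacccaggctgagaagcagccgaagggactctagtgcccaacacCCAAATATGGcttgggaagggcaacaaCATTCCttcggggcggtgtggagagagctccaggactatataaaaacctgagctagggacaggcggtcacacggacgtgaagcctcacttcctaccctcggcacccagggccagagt
Pgam2, chr14:84897825-84898124, minus strand: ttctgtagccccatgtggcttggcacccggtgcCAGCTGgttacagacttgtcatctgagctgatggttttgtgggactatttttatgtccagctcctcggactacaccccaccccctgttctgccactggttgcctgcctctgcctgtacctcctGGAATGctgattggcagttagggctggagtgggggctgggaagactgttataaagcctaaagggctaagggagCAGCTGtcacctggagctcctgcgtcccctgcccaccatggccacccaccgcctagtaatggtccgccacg
Cox6a2, chr1:192219667-192219966, minus strand: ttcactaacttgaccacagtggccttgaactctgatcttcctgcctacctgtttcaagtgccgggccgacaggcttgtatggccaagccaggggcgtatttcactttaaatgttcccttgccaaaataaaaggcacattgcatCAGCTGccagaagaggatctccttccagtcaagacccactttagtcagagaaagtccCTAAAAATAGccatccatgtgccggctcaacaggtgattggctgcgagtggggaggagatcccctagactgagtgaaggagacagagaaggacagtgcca
The motifs were CAGCTG, an E-box that reads the same on both strands, CATTCC on either strand, which is the core that TEAD proteins are known to bind, and the MEF2 box and the CArG box, both searched on both strands. Overlaps between motifs were allowed. Ckm holds CAGCTG at 2 positions, Acta1 holds CAGCTG beside the TEAD core and a CArG box, Pgam2 holds CAGCTG at 2 positions and the TEAD core, and Cox6a2 holds CAGCTG and a MEF2 box. Of the 99 genes higher at the high end, score genes included, 82 had a RefSeq promoter, in 85 windows of 300 bases. CAGCTG was in 41.2% of these windows and in 15.1% of 33469 promoters of the same length, the TEAD core in 21.2% and 14.2%, the MEF2 box in 16.5% and 3.29%, and the CArG box in 3.53% and 1.64%. A match is a run of letters and says nothing of binding.

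Slow-fibre and cardiac isoforms were higher at the high end in 7 of 11 measured cases, with a median of 3.55 log2 units. Myh7, the slow myosin heavy chain, was at -0.995, -1.64, 1.52, 1.34 and 1.97 on the high arrays and at -4.37 to -3.87 on the low arrays, a difference of 4.55 log2 units. On the arrays between it was at -3.29 on exposed replicate 7 and -3.22 on exposed replicate 3, above every low array, and no higher than the highest low array on the other 5, which include sham replicate 7 at -4.57 with a score of 1.47. Tnnt1, the slow troponin T, was at 0.09 and -0.24 on the 2 arrays at the lower edge of the high end and at 2.34 to 2.88 on the 3 others, against -3.18 to -1.51 on the low arrays. Myl2 and Myl3, light chains of slow and cardiac myosin, were at least 28.0-fold and 55.0-fold higher. Tnnc1, Tnni1 and Myh6 differed by 3.63, 5.31 and 3.42 log2 units, Tnni1 with 1 of 5 low arrays above background.

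For each array between the ends, genes that stood above every low array were counted, a count made after the values were seen. The genes are those already counted as higher than these low arrays at the high end. On sham replicate 7, 35 of 39 higher contractile, calcium and energy genes lay above every low array, 0 of 7 slow-fibre genes did, and 15.5% of all probes did. On exposed replicate 7 the values were 27 of 39, 4 of 7 and 12.5%, and on exposed replicate 3 they were 37 of 39, 6 of 7 and 16%. In the slope test 16 of the 39 genes passed and 0 of the 7, against 0.136% of all probes. Among those above background on all 7 arrays between, 12 of 24 and 0 of 4 passed. The 23 of the 39 that did not pass include fast and general muscle genes such as Myh2 (adjusted p = 0.329) and Ckmt2 (adjusted p = 0.605). Myh7 had a slope of 0.092 ± 0.092 (SE, limma adjusted p = 0.780) and Tnnt1 of 0.098 ± 0.112 (adjusted p = 0.812), against 0.84 ± 0.031 for Tnnt3. The slow-fibre genes Myl3 and Myl2 had slopes of 0.41 ± 0.115 (adjusted p = 0.311) and 0.24 ± 0.147 (adjusted p = 0.625). The median slope of the slow-fibre list was 0.098. It was 0.41, 0.089, 0.36 and 0.13 in the thick filament, thin filament, Z-disc and calcium lists. The difference between these slopes was not tested. Pvalb, the calcium buffer parvalbumin of fast fibres, did not pass the slope test either. It was at 2.00, 1.31, 3.22, 3.62 and 3.81 at the high end, 0.35 to 1.02 at the low end and 0.23 to 1.17 between, with a slope of -0.07 (adjusted p = 0.766).

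**Figure D3:**
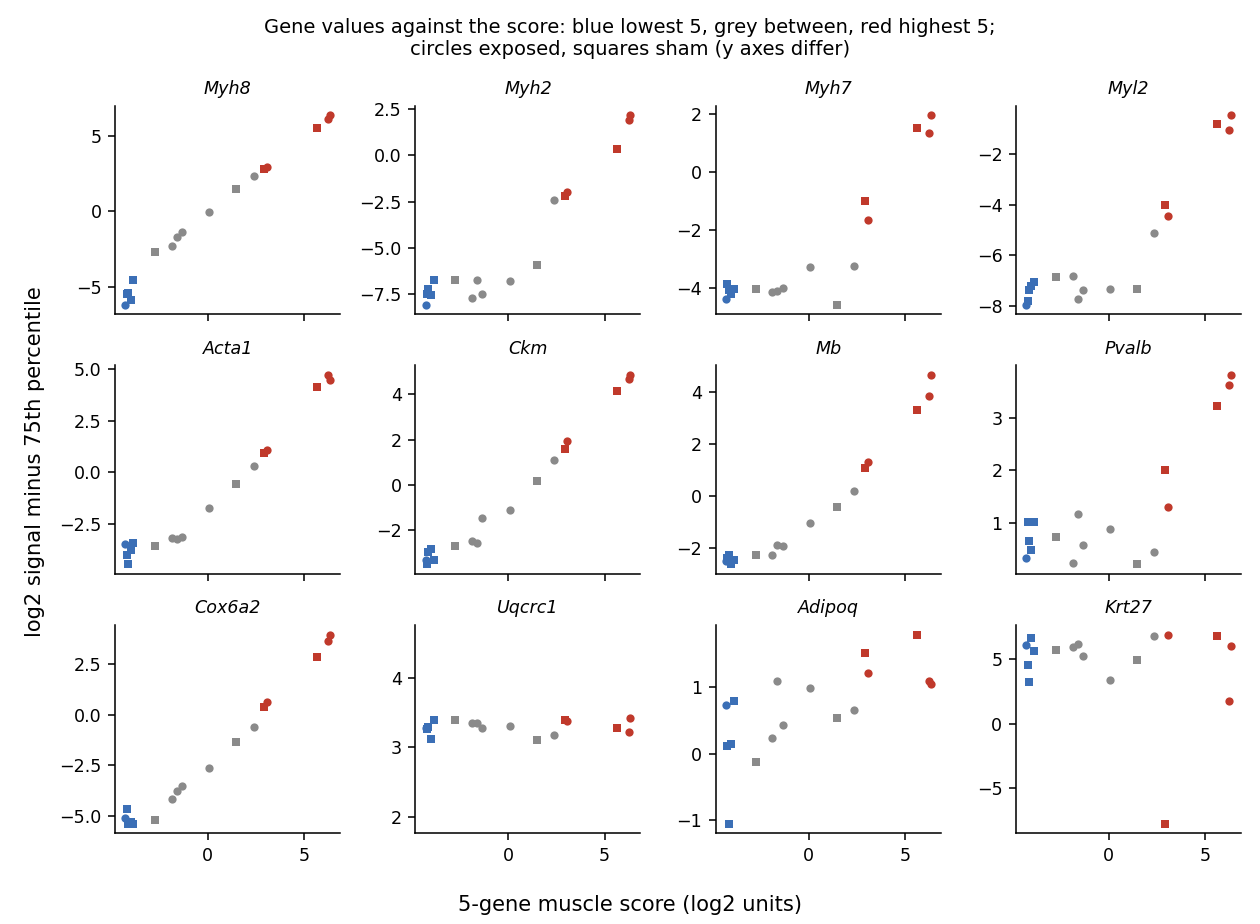
Level of 12 genes, in log2 units relative to the 75th percentile of each array, against the muscle score, with the low end in blue, the arrays between in grey and the high end in red, and circles for exposed and squares for sham arrays. Myh8, Acta1 and Cox6a2 climb through the middle, whereas Pvalb stays at 0.23 to 1.17 and Myh7 at -4.57 to -3.22 there. Krt27 shows 1 array far below the rest, sham replicate 5 at -7.74.

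Other tissues of the explant were compared by marker lists. The scores of 10 lists of contractile, calcium, developmental, energy and regulatory muscle genes separated the ends without overlap, and that of the neuromuscular junction did not. A list score is a mean that few genes can carry. In the developmental, respiratory chain and fatty acid oxidation lists 1 of 9, 2 of 21 and 2 of 19 genes were counted, with medians of 0.61, 0.068 and 0.098. Of the lists other than skeletal muscle the score of smooth muscle and pericyte genes separated the ends, at -0.55 to 0.10 on low arrays and 0.13 to 0.35 on high arrays. This list shares Des with the Z-disc and developmental lists. It differed by 0.37 over all 10 arrays and by 0.11 on slide 2. Its genes had a median difference of 0.42, and none of 12 was counted as higher, against 0.607% of all probes. Adipocyte genes had a median of 0.57, with 1 of 12 counted. That gene was Adipoq, the fat hormone adiponectin, at 1.50, 1.21, 1.79, 1.09 and 1.05 against 0.72, 0.11, -1.06, 0.15 and 0.79, a difference of 1.18 log2 units with a slope of 0.092 (adjusted p = 0.738). The adipocyte list score overlapped between the ends, at -0.80 to 0.17 against 0.17 to 0.80, and it differed by 0.12 over exposed arrays and by 0.95 over sham arrays. Adipoq differed by 0.39 and 1.64 in the same order. The part of fat cells in any difference given here was not tested.

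Tendon and fascia genes had a median of 0.22 with 0 of 8 counted, and dermal fibroblast and collagen genes a median of 0.44 with 0 of 17 counted. Over all probes 0.607% were counted as higher. The collagen list differed by 0.40 in its mean over arrays and by 0.24 without sham replicate 5, the array at which it stood at 0.88. On slide 2, which holds arrays of both ends, it differed by 0.0285. Macrophage genes differed by 0.26 over all 10 arrays, by 0.11 without sham replicate 5 and by 0.20 on slide 2. Suprabasal epidermal genes were lower in the mean in 11 of 11 measured cases, with a median of -0.13, and basal keratinocyte genes in 7 of 8, with a median of -0.19, against a share of 41.0% of all probes above 0. None of these genes was counted as lower, against 0.00471% of all probes. The suprabasal and basal lists differed by -0.15 and -0.18 over all 10 arrays and by -0.20 and -0.055 on slide 2. Mast cell genes were higher in the mean in 9 of 9 cases, with a median of 0.49, and their list score differed by 0.93 over exposed arrays, 0.37 over sham arrays and -0.64 on slide 2. It was 0.42 over all 10 arrays and 0.18 without sham replicate 5.

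Hair follicle genes had a wide spread. Their median was -1.23, and the list score on the high arrays was -5.97, 1.45, 2.46, -3.29 and 0.52, against -1.81 to 1.52 on the low arrays. The lowest value belonged to sham replicate 5, and without it the list differed by 0.060 in place of -1.19. Krt27, an inner root sheath keratin, was at -7.74 on that array and between 1.74 and 6.86 on the other 4 high arrays. The 1 gene counted as lower at the high end was Gpat2, a glycerol-phosphate acyltransferase, at -6.56, -7.10, -7.47, -6.24 and -5.81 against -5.37 to -4.57. It was above background on 0 of 5 high arrays and on all 5 low arrays, and its slope over the arrays between was 0.068 (adjusted p = 0.929). The count of lower probes was 15 without exposed replicate 8, 5 without exposed replicate 4 and 4 without exposed replicates 6 or 9 or sham replicate 4. It was 3 without sham replicates 3 or 8 and 2 without sham replicate 1. Fewer arrays make non-overlap easier to meet, so these counts can rise for that reason alone.

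**Figure D4:**
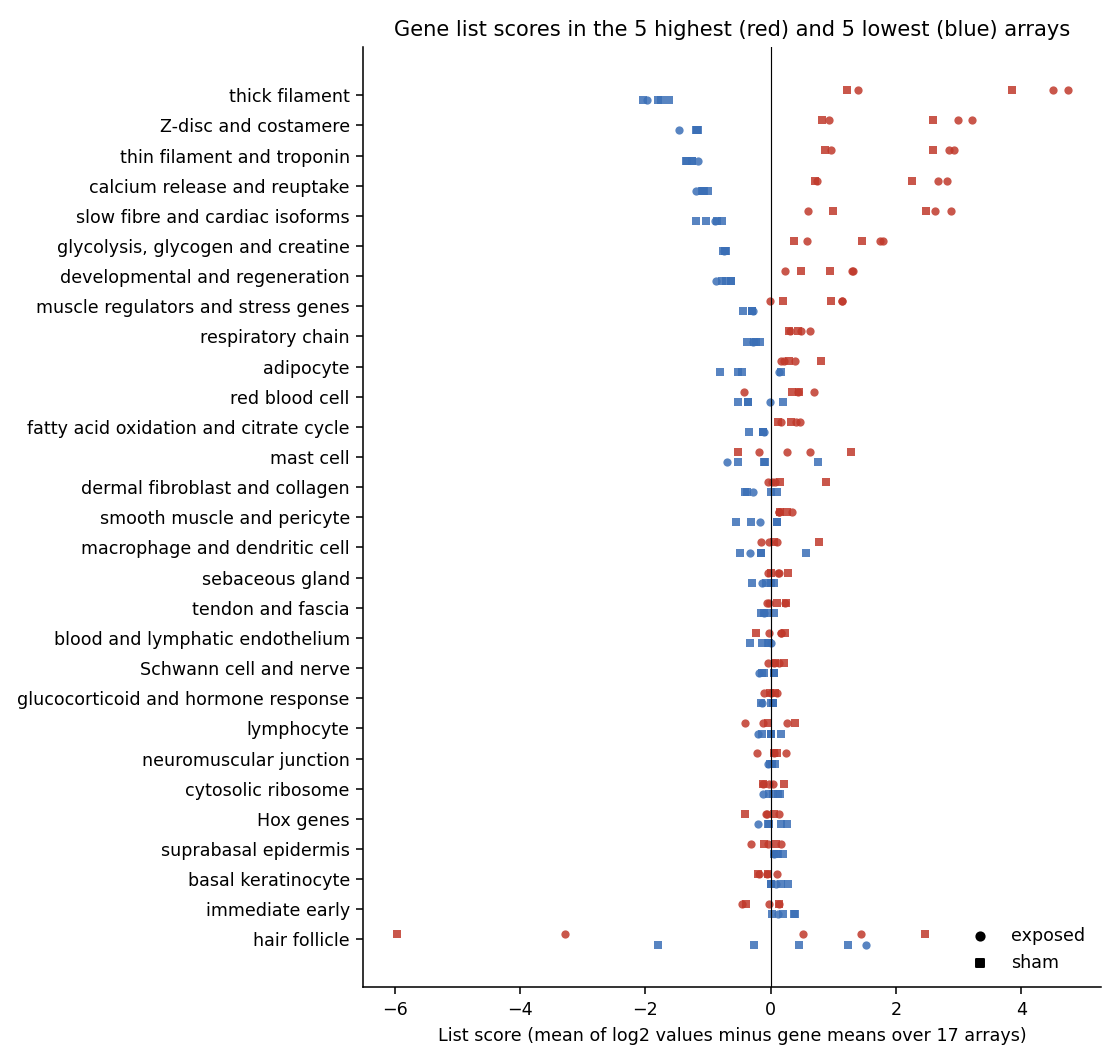
Score of each gene list on the 5 highest (red) and 5 lowest (blue) arrays, as the mean over the list of log2 values minus each gene's mean over 17 arrays, with circles for exposed and squares for sham arrays. The muscle lists at the top separate, most other lists stay near 0, and the hair follicle list spreads from -5.97 to 2.46.

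The muscle differences were also computed within exposure groups and within the slide that holds both ends. The thick filament list differed by 4.98 over all 10 arrays, by 5.53 between the 3 exposed high arrays and the 1 exposed low array, by 4.34 between the 2 sham high and 4 sham low arrays and by 5.00 on slide 2. The slow-fibre list differed by 2.86, 2.93, 2.70 and 2.92 in the same order. Acta1 gave 6.90, 6.92, 6.45 and 7.32, and Myh7 gave 4.55, 4.93, 4.31 and 4.28. Ends that do not overlap keep their sign in any subset of the same arrays, so these values bear on size alone. Sizes depended on how dim probes were treated and on which genes of a list had a value. The thick filament list differed by 3.02 with normexp background correction, by 3.32 over probes well above background on all 17 arrays and by 3.79 in the deposited value table, and the slow-fibre list by 1.88, 1.87 and 1.33. The filter and the deposited table leave out genes of these lists, such as Myh2 and Myl2, so those values are means over fewer genes. Of the 32 counted genes 8 had a value in the deposited table, at 0.996 to 1 times the main difference. With normexp 16 of the 32 counted genes, score genes left out, moved by over 1.5 times on the log2 scale, such as Myh2 to 4.04 and Myot to 2.88.

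Exposed and sham skin were compared over all 17 arrays with the muscle score as a covariate. No probe passed at an adjusted p under 0.05 by limma (0 of 21253, 0.0%), and 639 (3.01%) had an unadjusted p under 0.05, 117 higher and 522 lower in exposed skin. The smallest adjusted p was 1.00. Of the 129 probes higher at the high end, 0 had an unadjusted p under 0.05, and their exposed minus sham effects ran from -0.94 to 0.52 log2 units with a median of -0.23. The ends of the covariate chose these probes, and the fit takes out variation that follows it. This count therefore cannot tell whether muscle RNA differed with exposure. Myh7 had an effect of -0.48 ± 0.532 and Acta1 of -0.36 ± 0.320 (SE, n = 17). Among the genes of smallest p over the whole table were Usp31 at -0.62 and Abhd2 at -0.33, each with an adjusted p of 1.00.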

How the data were processed

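RNA of 17 rat skin explants was measured on 1-colour arrays. The deposited scanner files hold fluorescence intensity, background-subtracted within each array by Agilent Feature Extraction 10.7.3.1 (protocol GE1_107_Sep09), and quality flags for each spot, per the file headers. The deposited value table holds log2 values of 14853 probes whose row medians are 0.0. Set against centred scanner values, its columns gave correlations across probes of 0.981 to 0.999 and had medians from -0.037 to 0.041. How it was scaled, and why it lists these probes, is not stated. It was used as an alternative source.

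From each log2 processed signal the 75th percentile of its array was subtracted. Control spots and outlier spots were left out and the spots of a probe averaged, which gave 30367 probes. Probes well above background on at least 5 arrays were kept (21258, of which 13488 have a symbol, for 11409 genes), and the brightest kept probe stood for a gene. Symbols came from the transcript accession of a probe through RefSeq (GRCr8 table, names only), which named 17990 probes with 1 symbol and left 12377 without. A lower bound sets the mean of the bright end against, per dim array, the higher of the dimmest signal well above background and the probe's own signal. The ends were described by differences, SDs and overlap. Tests used limma 3.58.1 in R 4.3.3 and were checked on simulated data. Benjamini-Hochberg adjustment ran over all 21258 kept probes, those of the 5 score genes included. The score genes were left out of the counts only. The score was the only covariate in the exposure comparison. The number of arrays limits the precision. Signal was corrected with normexp (offset 50) as an alternative on the median signal, as the mean signal was not used here.

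The members and gene lists were chosen with earlier results of these data known. Genes named are the 20 with the largest positive difference, those counted as lower, the 2 with the largest absolute difference in each list, a fixed set of muscle and skin genes, the 5 of smallest slope p in each direction and the 3 of smallest exposure p, of which 1 is not reported here. Other members of the lists, Rpl3l, and genes that passed the slope test were named after their values were seen. Replicate numbers follow accession order and pair nothing. Alternatives were other scalings, filters, end sizes, left-out arrays, slide and exposure.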

Additional observations from a re-analysis of the deposited data

Results flagged for a closer look

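In 236 groups of 5 arrays, made of named genes and list scores at each end, 12 had an array set apart from the other 4 by Dixon's 95% critical value of 0.71. Chance sets apart about 1 in 20 groups, so this number is near what chance gives. The groups share arrays, and sham replicate 5 accounts for 5 of the 12.

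At the high end sham replicate 5 was the highest array for the dermal fibroblast and collagen list at 0.88, with the others at -0.039 to 0.15, for the macrophage and dendritic cell list at 0.77, with the others at -0.16 to 0.11, and for Fbn1 (fibrillin) at 0.48, Hba-a1 (alpha globin) at 4.24 and Pmp22 (a myelin protein) at 2.10. The same array had the lowest hair follicle score.

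At the low end exposed replicate 9 was lowest for the Z-disc and costamere list at -1.46. Sham replicate 1 was lowest for the fatty acid oxidation and citrate cycle list at -0.35, for H19 at -6.19 and for Mc5r (a melanocortin receptor of sebaceous glands) at -2.53. Sham replicate 6 was lowest for the muscle regulators and stress genes at -0.45 and highest for the T cell genes Cd4 at -4.47 and Cd8b at -3.11.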

How the results depend on the processing

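Alternatives that only leave out arrays cannot turn the sign of genes and lists counted for not overlapping, so sizes are given. Of the 8 lists, the score genes left out, whose scores separated the ends by at least 2-fold, 6 moved by over 1.5 times in the deposited value table, 6 with the filter on all 17 arrays, 5 with normexp and 3 with the median over genes, down to 0.14 of their value, and 0 under the scalings. Of 32 counted genes 16 did so with normexp and 1, Adipoq, over exposed arrays only. Among the 51 other named genes 18 turned sign at least once, and among the 21 other lists 8 did. The number of probes higher at the high end, 129, was 54 when probes had to be well above background on all 17 arrays, which leaves out genes dim on the low arrays, and ran from 129 to 157 with each array left out in turn. It was 151 with 4 arrays in each end and 101 with 6. Non-overlap is easier to meet with fewer arrays, so counts with arrays left out can rise for that reason alone. The number of lower probes, 1, was 2 under quantile and under median scaling, 0 with normexp, 3 with 4 arrays in each end, 0 with 6 arrays in each end, 0 with the filter on all 17 arrays, 9 with no filter, and 1 to 15 with each array left out in turn. The number of rising probes over the 7 arrays between, 29, was 12 with the filter on all 17 arrays and 10 to 28 with each array left out. The number of falling probes, 0, was 1 with normexp and 0 to 2 with each array left out, the 2 without exposed replicate 1. The exposure comparison gave 0 probes under every alternative run, including 0 with slide as a block and 0 with no covariate, where 877 had an unadjusted p under 0.05. Slide 2 alone and slide as a block were the same estimate, the first of which was added after the data were seen, as was the 75th percentile over spots. No paired analysis was possible because the replicate numbers follow accession order. The differences of dim probes are limited by signal over background, as 41 of the 129 higher probes have only a lower bound.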

Other observations

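Genes other than the muscle lists that stood higher at the high end included Car3, a carbonic anhydrase of muscle and fat, by 3.29 log2 units and Phyh, a peroxisomal hydroxylase, by 1.44. Cpa1, a carboxypeptidase, and Padi2, a peptidylarginine deiminase, were at least 3.39-fold and 6.10-fold higher, with no low array above background. None of these 4 genes passed the slope test over the arrays between, which 0.136% of all probes passed. They were chosen after their values were seen.

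Over the 7 arrays between, the 5 named genes of smallest p with a falling slope were Il18, Creb3l3, Mrgprx2, Cd8b and Defb1, at slopes of -0.27, -0.35, -0.24, -0.21 and -0.11 log2 units per score unit, and adjusted p-values of 0.062, 0.067, 0.070, 0.086 and 0.148 by limma. Immediate early genes were lower at the high end in the mean in 10 of 11 measured cases, with a median of -0.31, and Fos was at -3.08, -1.82, -1.31, -1.33 and -3.29 against -1.85 to -0.67, an overlap of the groups.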
